A study of Rattus norvegicus with 6 samples.

Results

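The miR-130/miR-301 and miR-148/miR-152 seed families were represented on the rat miRNA array by 5 miRNAs, rno-miR-130a, rno-miR-130b, rno-miR-301a, rno-miR-148b-3p and rno-miR-152, which were chosen by their array names, without the star arms, among 677 miRNAs. They were measured in rTDSCs, which are stem cells isolated from the patellar tendon of male Sprague Dawley rats, 8 weeks old according to the methods, and used at passage 3 according to the labels. The loading group (3 samples) was stretched uniaxially on flexible plates coated with collagen I (10% elongation, 0.5 Hz, 8 h each day), and RNA was taken after 7 days. The non-loading group (3 samples) was kept on the same plates in the static state for the same time. The labels name no transgene or other agent in either group. The labels do not say whether the 3 samples of a group came from separate rats or cultures, so the tests measure the spread between these samples, which may be technical. As each sample is a bulk culture, fewer cells of a type and less RNA per cell cannot be told apart.

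A miRNA pairs with sites in the 3′ untranslated region of its target mRNAs, mainly through its seed (bases 2 to 8 from the 5′ end), and lowers the output of these mRNAs. Members of a seed family therefore share many predicted targets. The miR-130/miR-301 family is known from work on stiff matrix, where it has been placed downstream of the transcriptional coactivator YAP, and from fibrosis. The miR-148/miR-152 family is known for the maintenance DNA methyltransferase Dnmt1 as a target. The comparison asks whether either family changed when tendon stem cells were stretched.

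Mature sequences are shown because the seed defines both families and because close sequences bear on what an array probe can tell apart. They are those of RefSeq (build GRCr8), in which 4 of the 5 members had an entry, with array names that give no arm taken as the 3p arm. rno-miR-301a is named only. Capitals mark the seed. The first 3 lines are of the miR-130/miR-301 family, and the last 3 lines of the miR-148/miR-152 family. rno-miR-301b and rno-miR-148a are relatives with the same seed. The array carried rno-miR-301b but no name for rno-miR-148a.
rno-miR-130a-3p: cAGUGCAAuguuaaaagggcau
rno-miR-130b-3p: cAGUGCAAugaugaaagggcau
rno-miR-301b-3p: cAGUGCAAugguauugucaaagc
rno-miR-148b-3p: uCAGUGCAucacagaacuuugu
rno-miR-152-3p: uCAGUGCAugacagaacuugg
rno-miR-148a-3p: uCAGUGCAcuacagaacuuug

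Each seed was found in 3 of the 724 mature entries of the table, which were the 3 sequences shown for it. The seeds are shifted against each other by 1 base, so that both families hold the word CAGUGCA. It lies at bases 1 to 7 of the miR-130/miR-301 sequences and at bases 2 to 8 of the miR-148/miR-152 sequences. Searched on the strand as given, this word occurs in 13 of the 724 mature entries (1.8%), rno-miR-17-5p and rno-miR-106b-5p among them. Outside the seed the families part. rno-miR-130a-3p and rno-miR-130b-3p differ at 2 of 22 bases (U11A and A13G, counted from the 5′ end of rno-miR-130a-3p). rno-miR-148b-3p and rno-miR-152-3p differ at 2 of 21 aligned bases (C10G and U20G, counted from the 5′ end of rno-miR-148b-3p).

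In GRCr8 the mature rno-miR-130a-3p lies at chr3:90229240-90229261 on the minus strand. rno-miR-130b-3p lies at chr11:97384430-97384451 on the plus strand, and its hairpin follows that of rno-miR-301b after 269 bases. rno-miR-148b-3p lies at chr7:136299930-136299951 and rno-miR-152-3p at chr10:82329435-82329455, both on the plus strand. Mir148b overlaps the gene Copz1 and Mir152 overlaps Copz2, which encode alternative zeta subunits of the coatomer of transport vesicles. Mir301a overlaps Ska2, a gene of the spindle and kinetochore complex, and Prr11. Overlap was taken by position, without regard to strand. Whether these positions are exonic or intronic is not given in the table used.

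Each sample was hybridised in 1 colour to 1 array, and all 6 arrays lay on 1 slide. Every member had 2 probes, each with 10 spots on an array. The values below are spot intensities after background subtraction, added up over both probes and given as percent of the 75th percentile of the array over the 173 probes that were detected on all 6 arrays. That percentile lay between 262.6 and 362.2 intensity units, and the standard deviation of the negative-control spots lay between 1.80 and 2.28 units. The number of arrays limits the precision of each value.

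The cells were checked against marker miRNAs of several cell types. Of the 5 mesenchymal markers, miR-199a-3p, miR-199a-5p, miR-214 and miR-143 were detected on all 6 arrays and miR-145 on 3. The 12 markers of skeletal muscle, epithelium, neurons and liver were detected on none. Of the 5 blood markers, miR-142-3p, miR-142-5p, miR-150 and miR-451 were detected on none, and miR-223 was detected on 5 arrays. The endothelial marker miR-126 was detected on all 6 arrays.

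Under mechanical loading, none of the 4 members that could be tested passed the test, and the other one, rno-miR-130b, was not well above background. rno-miR-130a, rno-miR-301a, rno-miR-148b-3p and rno-miR-152 were detected on all 6 arrays, and rno-miR-130b on none. With limma and Benjamini-Hochberg adjustment over the 148 miRNAs tested, 0 of the 4 measured members passed an adjusted p of 0.05, as did 0% of all miRNAs tested. At an unadjusted p of 0.05 it was 0 of 4, against 9.46% of all (14 miRNAs). The methods' test gave 2 and 15 miRNAs at these thresholds, none of them a member. The loading and non-loading arrays overlapped for 4 of 4 members, whereas they did not overlap for 15.5% of all miRNAs tested. The median absolute change was 0.066 on the log2 scale over the 4 members and 0.11 over all 148 miRNAs, and the median signed changes were 0.031 and 0.064.

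**Figure D1:**
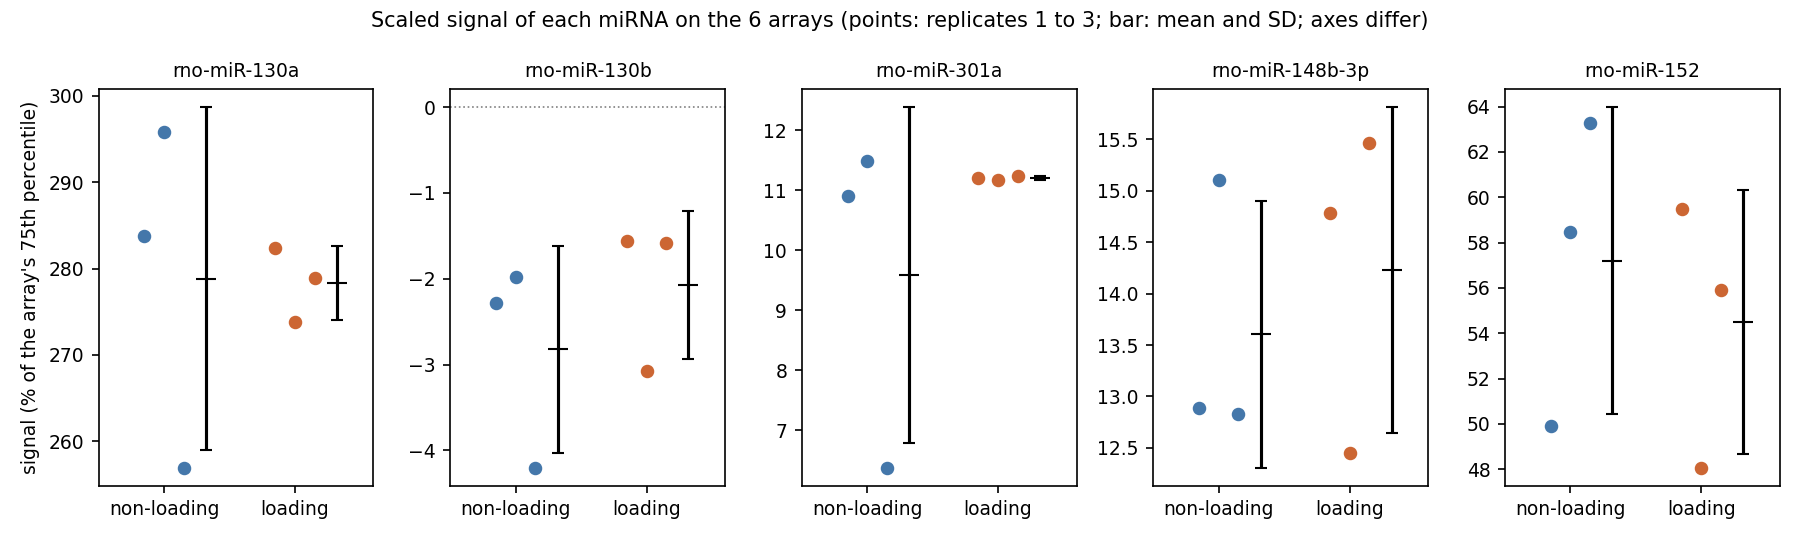
Scaled signal of the 5 miRNAs on each array, as percent of the 75th percentile of the array, with 1 point per sample (replicates 1 to 3 from left to right) and a bar for the mean and SD of each group (n = 3). The vertical axes differ and do not start at 0. The groups overlap for every miRNA, non-loading replicate 3 lies apart at 6.38% for rno-miR-301a, and all values of rno-miR-130b are below 0.

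rno-miR-130a belongs to the family tied to stiff matrix and had both of its probes well above background in 120 of 120 spots. Its signal was 283.7%, 295.8% and 257.0% of the 75th percentile on non-loading arrays 1, 2 and 3. Under mechanical loading it was 282.4%, 273.9% and 278.9% on arrays 1, 2 and 3. The highest and the lowest values were both of non-loading arrays, and the loading arrays lay between them. The log2 scaled signal was 1.48 ± 0.10 (SD, n = 3) without and 1.48 ± 0.022 (SD, n = 3) with loading. The difference was 8.6e-05, with a standard error of 0.083 (limma adjusted p = 1.00) and a 95% interval from -0.20 to 0.20, which is a signal between 0.869 and 1.15 times the non-loading one. Of the 148 miRNAs tested, 1 had a smaller absolute change, but this rested on non-loading replicate 3, without which the difference was -0.058 (limma adjusted p = 0.732) and all loading arrays lay below the other non-loading arrays. With any 1 array left out, the groups did not overlap for 33 to 48 of the 148 miRNAs. The probes of rno-miR-130a gave log2 changes of 0.020 and -0.0099 when taken alone.

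rno-miR-130b, which shares 20 of 22 bases with rno-miR-130a, had 0 of 120 spots well above background. Its summed signal was below 0 after background subtraction on every array, between -4.20% and -1.57% of the 75th percentile, so no fold change is given. Its probes thus stayed below background on the same arrays on which both probes of rno-miR-130a were well above it. Its neighbour in the genome, rno-miR-301b, also was well above background in 0 of 120 spots. The other arms of the member hairpins on the array (rno-miR-130a*, rno-miR-130b*, rno-miR-301a*, rno-miR-148b-5p and rno-miR-152*) and rno-miR-301b* were not detected on any array either.

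rno-miR-301a, the third member of the miR-130/miR-301 family, showed the largest difference of the 4. Its signal was 10.9%, 11.5% and 6.38% on non-loading arrays 1, 2 and 3, and 11.2%, 11.2% and 11.2% on loading arrays 1, 2 and 3. The loading arrays were nearly equal and lay between non-loading arrays 1 and 2, while non-loading array 3 was far below all others. The log2 scaled signal was -3.43 ± 0.47 (SD, n = 3) in the non-loading group and -3.16 ± 0.0038 (SD, n = 3) under loading. The difference of 0.27, with a standard error of 0.23, had a 95% interval from -0.29 to 0.83 (limma adjusted p = 0.724). Without non-loading replicate 3 the change was 0.0017. Without non-loading replicate 2 it was 0.43, and the groups then did not overlap. With any 1 array left out, the groups did not overlap for 33 to 48 of all 148 miRNAs. On the brighter probe alone the change was 0.19, and the dimmer probe had 0 of 60 spots well above background. The change was 0.094 with the mean over log2 probe signals, 0.086 with the total gene signal of Agilent and 0.080 with array weights.

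Non-loading replicate 3 was also the array with the fewest detected miRNAs, 140 against 145 to 186 on the others. On this array the 1371 probes detected nowhere had a median signal of -1.08% of the 75th percentile, against -0.64% to -0.25% on the other arrays. The dimmer probe of rno-miR-301a was at -0.45% there and between 0.88% and 1.20% elsewhere. The same array had the lowest signal of miR-126 (2.77% against 3.91% to 5.36%) and of miR-223 (4.48% against 6.58% to 8.75%). The summed signal of the 5 blood markers, of which only miR-223 was detected on any array, was 3.72%, 6.81% and -2.29% on non-loading arrays 1, 2 and 3, and 7.04%, 3.54% and 7.67% on loading arrays 1, 2 and 3. This sum includes the signals near or below 0 of the 4 markers that were not detected, and so the background of each array. The part of the background level or of the marker miRNAs in the low value of rno-miR-301a was not tested.

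**Figure D2:**
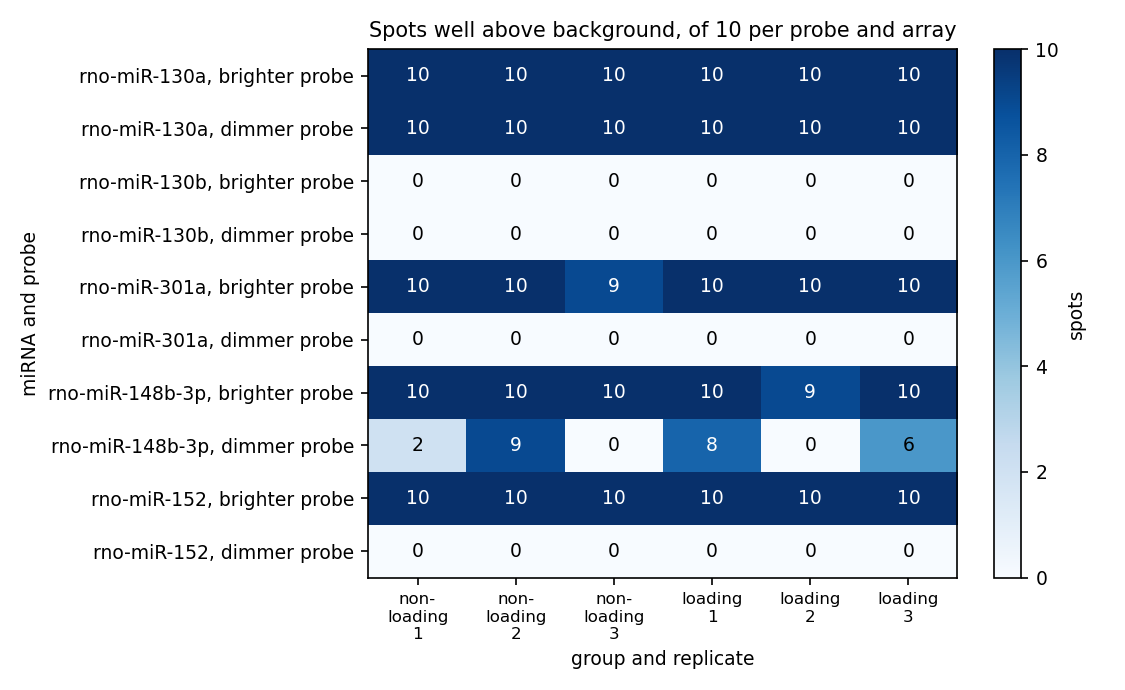
Number of spots well above background, of 10, for each of the 2 probes of the 5 miRNAs on each array (columns are groups and replicates). Both probes of rno-miR-130a have 10 on all arrays, rno-miR-301a and rno-miR-152 rest on 1 probe each, the dimmer probe of rno-miR-148b-3p varies from 0 to 9, and rno-miR-130b has 0 throughout.

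rno-miR-148b-3p, of the family known for targeting Dnmt1, had 84 of 120 spots well above background. Its signal was 12.9%, 15.1% and 12.8% of the 75th percentile on non-loading arrays 1, 2 and 3. Under mechanical loading it was 14.8%, 12.4% and 15.5% on arrays 1, 2 and 3. The lowest and the highest value were both of loading arrays. The log2 scaled signal was -2.88 ± 0.13 (SD, n = 3) without and -2.82 ± 0.17 (SD, n = 3) with loading. The difference on this scale was 0.063, with a standard error of 0.12 and a 95% interval from -0.23 to 0.36 (limma adjusted p = 0.847). The relative rno-miR-148a differs from rno-miR-148b-3p at 2 of 21 aligned bases (U9C and C10U, counted from the 5′ end of rno-miR-148b-3p). Whether its RNA added to these probes was not tested.

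rno-miR-152, of the same family, was well above background in 60 of 60 spots of its brighter probe and in 0 of 60 spots of the other. Its signal was 49.9%, 58.4% and 63.3% on non-loading arrays 1, 2 and 3, and 59.5%, 48.1% and 55.9% on loading arrays 1, 2 and 3. The loading arrays reached both lower and less high than the non-loading arrays, with most of the range shared. The log2 scaled signal was -0.81 ± 0.17 (SD, n = 3) without and -0.88 ± 0.16 (SD, n = 3) with loading. The difference was -0.069, with a standard error of 0.13 and a 95% interval from -0.38 to 0.25 (limma adjusted p = 0.846). Its sign and size depended on single arrays. The difference was 0.0074 without non-loading replicate 3, 0.019 without loading replicate 2 and -0.16 without non-loading replicate 1. In exact permutation tests over the arrays, the two-sided p was 1 for rno-miR-130a, 0.5 for rno-miR-301a, 0.9 for rno-miR-148b-3p and 0.6 for rno-miR-152, where 3 arrays against 3 cannot go below 0.1.

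**Figure D3:**
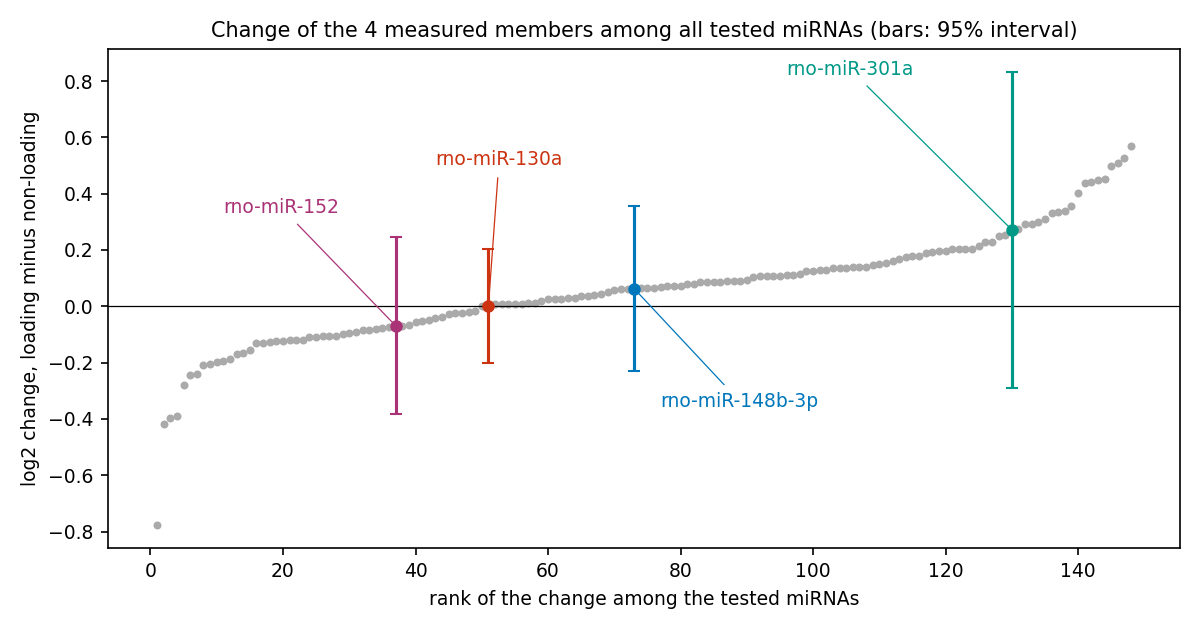
Log2 change (loading minus non-loading) of the 148 tested miRNAs in order of the change (grey points), with the 4 measured members in colour and bars for the 95% interval. All 4 intervals include 0, and that of rno-miR-301a, from -0.29 to 0.83, is the widest of them.

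How small a change could be seen differed between the members. As a ratio of loading over non-loading, the 95% interval ran from 0.869 to 1.15 for rno-miR-130a, from 0.853 to 1.28 for rno-miR-148b-3p, from 0.767 to 1.19 for rno-miR-152 and from 0.819 to 1.78 for rno-miR-301a. The standard deviation within groups was 0.075 on the log2 scale for rno-miR-130a, 0.15 for rno-miR-148b-3p, 0.17 for rno-miR-152 and 0.33 for rno-miR-301a, and its median over all 148 miRNAs was 0.16.

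For rno-miR-148b-3p and rno-miR-152, part of this spread went with columns 1 and 2 of the slide. Columns 1 and 2 of the slide each held 1 array of either group. In both columns the non-loading array lay in row 1 and the loading array in row 2. Within a column, group and row therefore cannot be told apart. The 75th percentile was 275.1 and 262.6 intensity units on the arrays of column 1 and 304.1 and 324.4 units on those of column 2 (non-loading and loading), so column and intensity cannot be told apart between them. On the brightest array, non-loading replicate 3 in column 3 (362.2 units), rno-miR-152 was at its highest, whereas rno-miR-148b-3p was near its values in column 1 and rno-miR-130a and rno-miR-301a were at their lowest. From column 1 to column 2, rno-miR-148b-3p was higher by 0.23 on the log2 scale in the non-loading group and by 0.31 in the loading group, and rno-miR-152 by 0.23 and 0.22. The same shift between columns was 0.060 and 0.026 for rno-miR-130a and 0.076 and 0.0076 for rno-miR-301a. For rno-miR-148b-3p and rno-miR-152 the groups within a column were thus closer to each other than the columns were. The 8 differences between the loading and the non-loading array of a column, over the 4 members and 2 columns, lay between 0.033 and 0.085 in size, with 2 positive and 6 negative. For rno-miR-301a they were 0.036 and -0.033, and for rno-miR-152 -0.054 and -0.064. The same differences were -0.051 and -0.085 for rno-miR-130a, and for rno-miR-148b-3p -0.050 and 0.034. With the column as a block in the fit, columns 3 and 4, which held 1 array each, added nothing to the difference, and its value was the mean of those within columns 1 and 2. The difference for rno-miR-301a was 0.0016 (limma adjusted p = 0.996), that of rno-miR-148b-3p was -0.0080 (0.974), that of rno-miR-130a was -0.068 (0.700) and that of rno-miR-152 was -0.059 (0.708).

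The rows of the slide were not balanced. All non-loading arrays lay in row 1 together with 1 loading array (replicate 1), while loading replicates 2 and 3 lay in row 2. Within row 1 the difference was 0.021 for rno-miR-130a, 0.27 for rno-miR-301a, 0.12 for rno-miR-148b-3p and 0.063 for rno-miR-152. The last one has the opposite sign of the difference over all arrays. Row 2 held arrays of the loading group alone and gives no value.

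**Figure D4:**
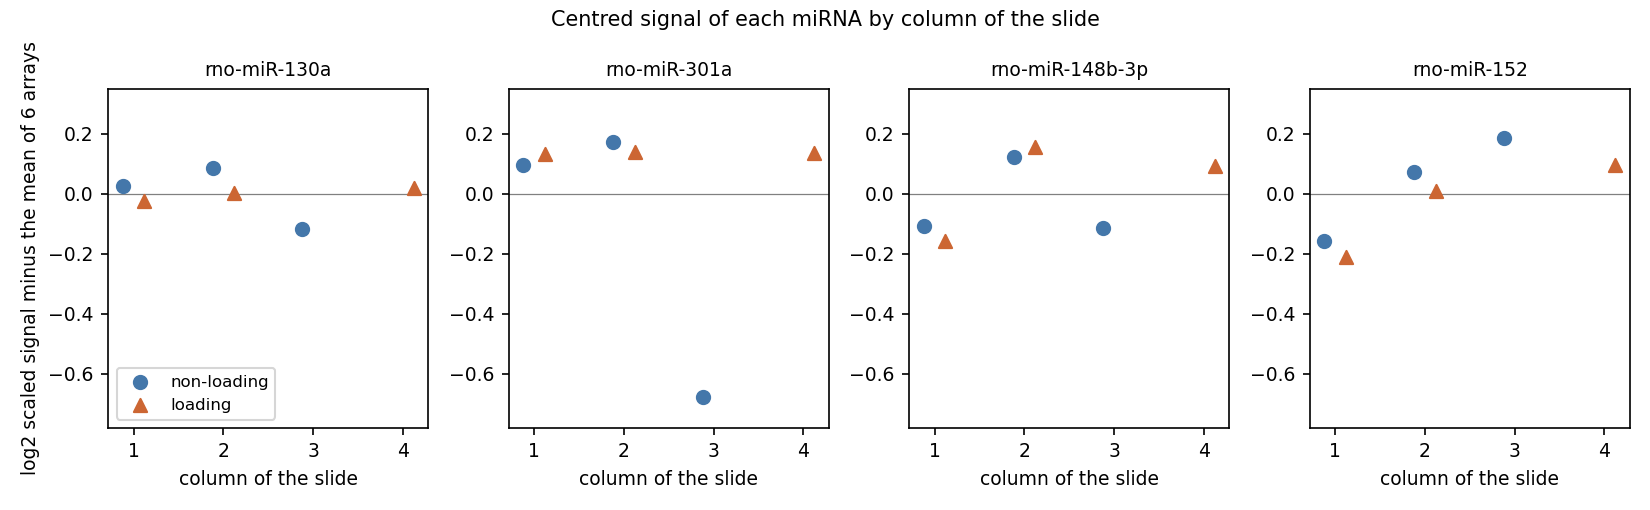
Log2 scaled signal of each measured member minus its mean over the 6 arrays, by column of the slide, with circles for non-loading and triangles for loading arrays, set slightly apart. In columns 1 and 2 the circle and the triangle lie within 0.085 of each other, whereas rno-miR-148b-3p and rno-miR-152 differ between these columns by 0.22 to 0.31. In these columns the circles are of row 1 and the triangles of row 2.

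The values of the members over the 6 arrays, whose scaling is common to all of them, were compared in pairs. The measure counts the size of the swings as well as their shape. The log2 range over the arrays was 0.20 for rno-miR-130a, 0.85 for rno-miR-301a, 0.31 for rno-miR-148b-3p and 0.40 for rno-miR-152. Both rno-miR-130a and rno-miR-301a were lowest on non-loading replicate 3, and likeness of shape alone was not tested. The root mean square difference between log2 signals, each centred on its own mean, was 0.10 for rno-miR-130a and rno-miR-148b-3p, the closest of the 6 pairs, which come from different families. It was 0.14 for rno-miR-148b-3p and rno-miR-152 and 0.25 for rno-miR-130a and rno-miR-301a, the pairs within a family, and 0.40 for rno-miR-301a and rno-miR-152, the most distant pair. The median difference from the tested miRNAs was 0.14 for rno-miR-130a, 0.28 for rno-miR-301a, 0.17 for rno-miR-148b-3p and 0.22 for rno-miR-152. rno-miR-148b-3p and rno-miR-152 were thus closer to each other than to most tested miRNAs, whereas rno-miR-130a and rno-miR-301a differed by less than the median of rno-miR-301a and by more than that of rno-miR-130a. Outside the families, the miRNAs with the closest values over the 6 arrays were rno-miR-22 and rno-miR-30d for rno-miR-130a (0.045 and 0.052), and rno-miR-3085 and rno-miR-672 for rno-miR-301a (0.068 and 0.11). They were rno-miR-218 and rno-miR-185 for rno-miR-148b-3p (0.049 and 0.054), and rno-miR-26a and rno-miR-127 for rno-miR-152 (0.081 and 0.088).

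Other miRNAs known from matrix, fibrosis or stretch were given the same test. Of a list of 8, which held miR-21, miR-29a, miR-29b, miR-29c, miR-143, miR-145, miR-199a-5p and miR-214, 7 were tested, and miR-145 was detected in neither group on all arrays. None passed an adjusted p of 0.05 and none an unadjusted p of 0.05 in limma, in either direction. The groups did not overlap for 1 of the 7 (miR-29a), beside 15.5% of all. Their log2 changes lay between -0.048 for miR-214 and 0.15 for miR-21, a miRNA known to be induced in activated fibroblasts, with a median of 0.090 beside 0.064 for all 148 miRNAs. The miR-29 family, known for collagen mRNAs and for the DNA methyltransferases Dnmt3a and Dnmt3b as targets, had changes of 0.071, 0.14 and 0.11 for miR-29a, miR-29b and miR-29c (limma adjusted p = 0.724 for each).

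**Figure D5:**
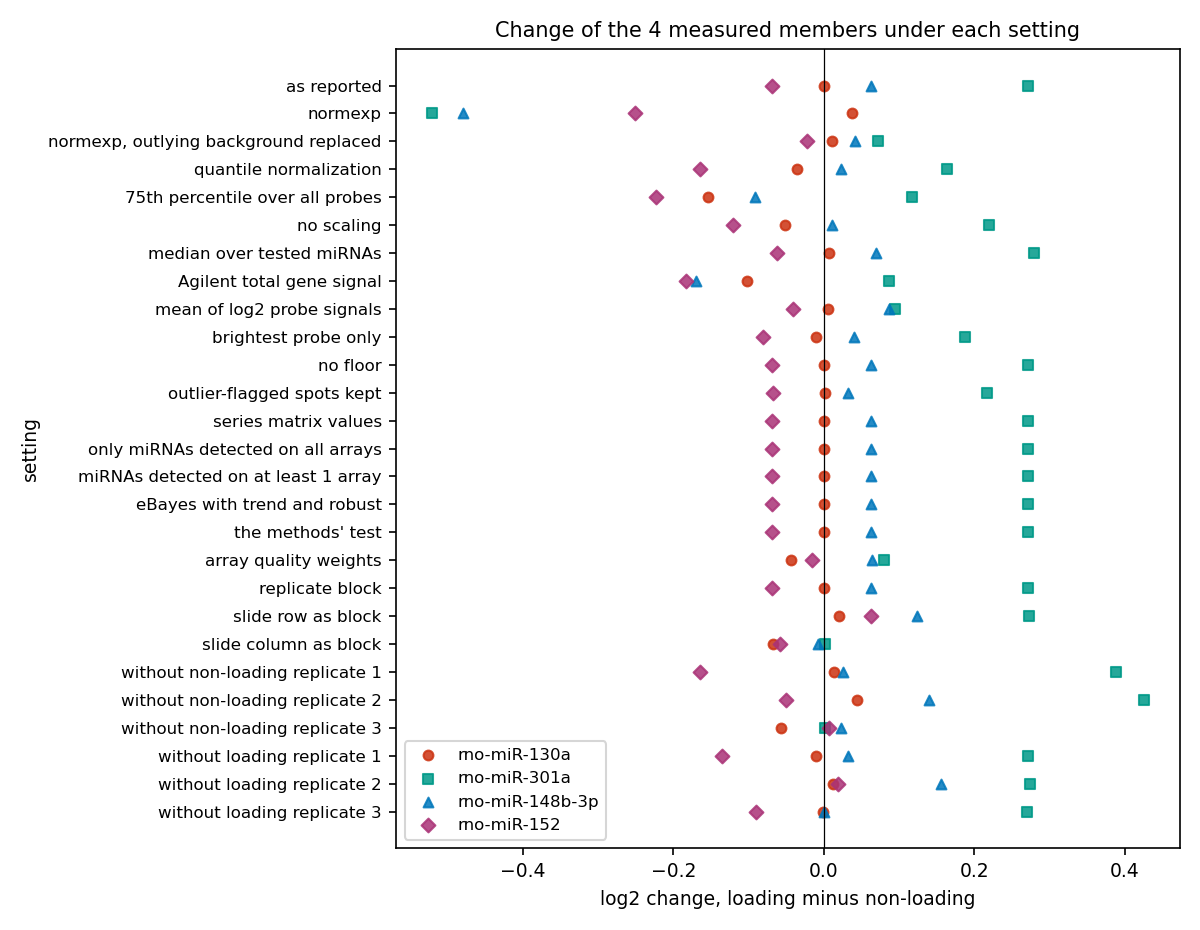
Log2 change (loading minus non-loading) of the 4 measured members as reported and under each other way of processing or testing, including each array left out in turn. No value passed an adjusted p of 0.05, the points of rno-miR-130a lie between -0.15 and 0.044, and rno-miR-301a runs from -0.52 with normexp background correction to 0.43 without non-loading replicate 2.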

How the data were processed

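For 6 one-colour arrays, the authors deposited scanner tables written by Agilent Feature Extraction (10.7.3.1 per the file headers), with a background-subtracted intensity and outlier and detection flags for each spot, without scaling between arrays. The values of the series matrix were identical to them (largest difference 0). The methods name a normalization without details. Here, the mean over the spots of a probe was taken without control spots and without spots marked as outliers. Arrays were scaled to a common 75th percentile, taken over probes with at least 50% of spots well above background on all 6 arrays. Probes were summed per miRNA, signals under the 1st percentile of detected miRNAs (1.87% of the 75th percentile) were set to it, and log2 was taken. Only rno-miR-130b among the members was at that floor. The test covered the 148 of 677 miRNAs that the scanner software called detected in every sample of either group, using limma 3.58.1 in R 4.3.3 (lmFit, eBayes, Benjamini-Hochberg adjustment over the 148), a step that was tested on simulated data. The methods' test pools, with 2 groups, the variance of each miRNA by itself. Normexp used the median signal and background with an offset of 50, and background values over 3 MADs from the median were replaced in a second version.

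The members and lists were chosen with earlier results of these data known. Named are the members, relatives by seed or hairpin, the list of matrix and stretch miRNAs, marker miRNAs, and for each member the 2 tested miRNAs with the smallest root mean square difference of centred log2 signals.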

Additional observations from a re-analysis of the deposited data

How the results depend on the processing

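No member passed an adjusted p of 0.05 under the 20 other settings or with an array left out, and the lowest adjusted p was 0.575 (limma, rno-miR-301a without non-loading replicate 2). The sign of these small changes depended on the processing, in part because scalings moved all miRNAs alike. rno-miR-130a was at -0.10 with the total gene signal of Agilent, -0.15 with the percentile over all probes, -0.035 with quantile normalization, -0.052 without scaling, -0.0099 with the brightest probe, -0.044 with array weights and -0.068 with the column as a block. rno-miR-148b-3p was at -0.48 with normexp, -0.17 with the total gene signal, -0.091 with all probes and -0.0080 with the column as a block. rno-miR-301a was at -0.52 with normexp and rno-miR-152 at 0.063 with the row as a block. Normexp moved the median of all miRNAs to -0.45 from 0.064, the percentile over all probes moved it to -0.090 and no scaling to 0.012. Relative to that median, rno-miR-130a was at -0.064 as reported, without scaling and with all probes, and rno-miR-148b-3p was at -0.0012 as reported and -0.0016 with all probes. With normexp, rno-miR-130a was at 0.49, rno-miR-152 at 0.20 (-0.13 as reported), rno-miR-301a at -0.073 (0.21 as reported) and rno-miR-148b-3p at -0.032 on the same relative scale. When outlying background was replaced before normexp, values were 0.011, 0.042, 0.072 and -0.022 for rno-miR-130a, rno-miR-148b-3p, rno-miR-301a and rno-miR-152. Leaving out 1 array gave values from -0.058 to 0.044, from -2.4e-04 to 0.16, from 0.0017 to 0.43 and from -0.16 to 0.019 in the same order. Without non-loading replicate 3 the arrays of rno-miR-130a did not overlap (change -0.058), nor did those of rno-miR-301a without non-loading replicate 2 (0.43).

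Over all tested miRNAs, 2 passed an adjusted p of 0.05 with the brightest probe, the mean over log2 probe signals, outlier spots kept, array weights, the methods' test, a robust eBayes fit with a trend, and with miRNAs detected on all arrays or on at least 1 array, and 0 with any array left out. The 14 at an unadjusted p of 0.05 became 0 with normexp, 8 with outlying background replaced, 1 with all probes, 4 without scaling, 8 with the total gene signal, 6 with the replicate block and 7 with the row as a block. Leaving out an array gave 6 to 17 (7 without loading replicate 1, 6 without loading replicate 3). The 23 without overlap became 0 with normexp, 1 with all probes and 11 without scaling, and 33 to 48 with an array left out (37, 44 and 36 without non-loading replicates 1, 2 and 3, 48 without loading replicate 2), where fewer arrays overlap less. Apart from that the cause was not tested.

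Whether replicate numbers 1, 2 and 3 mark pairs is unknown. Centred on their groups, the arrays of each correlated at -0.69, -0.47 and 0.11 across miRNAs, with no null value to decide it. As each number held 1 array of either group, the replicate block could move only the errors. For rno-miR-301a, still at 0.27, limma adjusted p was 0.850. Of 60 spots of the dimmer probe, 0 were well above background for rno-miR-301a, 25 for rno-miR-148b-3p and 0 for rno-miR-152, and rno-miR-130b is given no fold change.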
